A study of Mus musculus with 6 samples.

Results

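Genes of the TGF-beta, BMP, Wnt, Notch and Hedgehog pathways were examined in ID8 and KMF tumorspheres. They were chosen by gene symbol alone, from a fixed set of symbol stems for ligands, receptors, antagonists, signal transducers and classical target genes. Of the 7320 genes in the deposited table, 69 carried such a symbol, and RefSeq lists 158 mouse protein-coding genes with symbols of this kind. Every gene in that table had passed a test between the lines when it was deposited, so pathway genes outside it were not analysed here. By pathway, 30 of the 69 belonged to TGF-beta and BMP signalling, 25 to Wnt, 13 to Notch and 1, Smo, to Hedgehog.

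ID8 is a cell line of transformed mouse ovarian surface epithelium from the C57Bl6 strain, and KMF (also ID8-IP) is its derivative recovered from the ascites of mice that had received ID8 cells. Both lines were grown untreated for 5 days as tumorspheres, that is, as clusters of cells in suspension in serum-free medium. RNA was taken from ID8 at passages 23, 24 and 35 (replicates 1 to 3) and from KMF at passages 14, 17 and 22, so that passage and line cannot be told apart. Each line is 1 cell line, and p-values therefore measure the spread between RNA samples of these 2 lines only.

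TGF-beta, activin and BMP ligands bind pairs of serine/threonine kinase receptors that phosphorylate SMAD proteins, and secreted antagonists such as gremlin and follistatin hold the ligands away from their receptors. Wnt ligands bind Frizzled receptors with LRP5 or LRP6 and stabilise β-catenin, which acts with TCF and LEF proteins on DNA. Notch receptors are activated by Delta and Jagged ligands on neighbouring cells and release an intracellular domain that acts with RBPJ and Mastermind proteins on genes of the Hes and Hey families. These pathways shape the reproductive tract and the peritoneal lining during development, and TGF-beta is a known regulator of epithelial and mesenchymal states.

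The 6 libraries held between 23108407 and 33212313 fragments on genes. Levels are given as FPKM, fragments per kilobase of gene length scaled to the size of the library, which can be compared between genes. Differences are given as log2 fold changes of KMF over ID8 from edgeR fits to the counts, with their standard error (SE). A gene is termed called when its adjusted p-value was under 0.05. Of the 69 genes, 65 had enough counts to be fitted and 62 were called, which is 95.4%. Of all 6967 fitted genes, 92.9% were called, as follows from its selection, so the number of calls says nothing about these pathways. Of the members, 30 (46.2%) were higher in KMF and 32 (49.2%) lower, beside 45.4% and 47.5% of all fitted genes. Changes of at least 2-fold were called in 42 members (64.6%), beside 40.5% of all fitted genes. The median size of the change was 1.25 on the log2 scale for the members and 0.79 for all fitted genes. The libraries of the lines did not overlap in 60 of the 65 fitted members, against 96.6% of all fitted genes.

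Markers of the labelled cell type and of other cells were looked up in the same table. Of 12 markers of ovarian surface epithelium and mesothelium 7 were listed, and of the 6 that were fitted 5 were lower in KMF (among them Cdh1, Epcam and Upk3b) and 1 was higher (Msln). The transcription factor Wt1 was abundant in both lines, with a mean of 108 ± 12.1 FPKM for ID8 and of 77.3 ± 13.2 FPKM for KMF (± SD over 3 libraries). None of 16 leukocyte markers was listed, and the 2 listed endothelial markers of 8, Kdr and Tie1, had at most 17 counts in a library. Of 10 fibroblast and mural cell markers 6 were listed and all 6 were lower in KMF. Their summed level was 79.1 to 110 FPKM in ID8 and 14.2 to 26.4 FPKM in KMF, mostly of Dcn, and their part in the results below was not tested. In such bulk RNA, fewer cells of a type and less RNA per cell cannot be told apart.

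**Figure D1:**
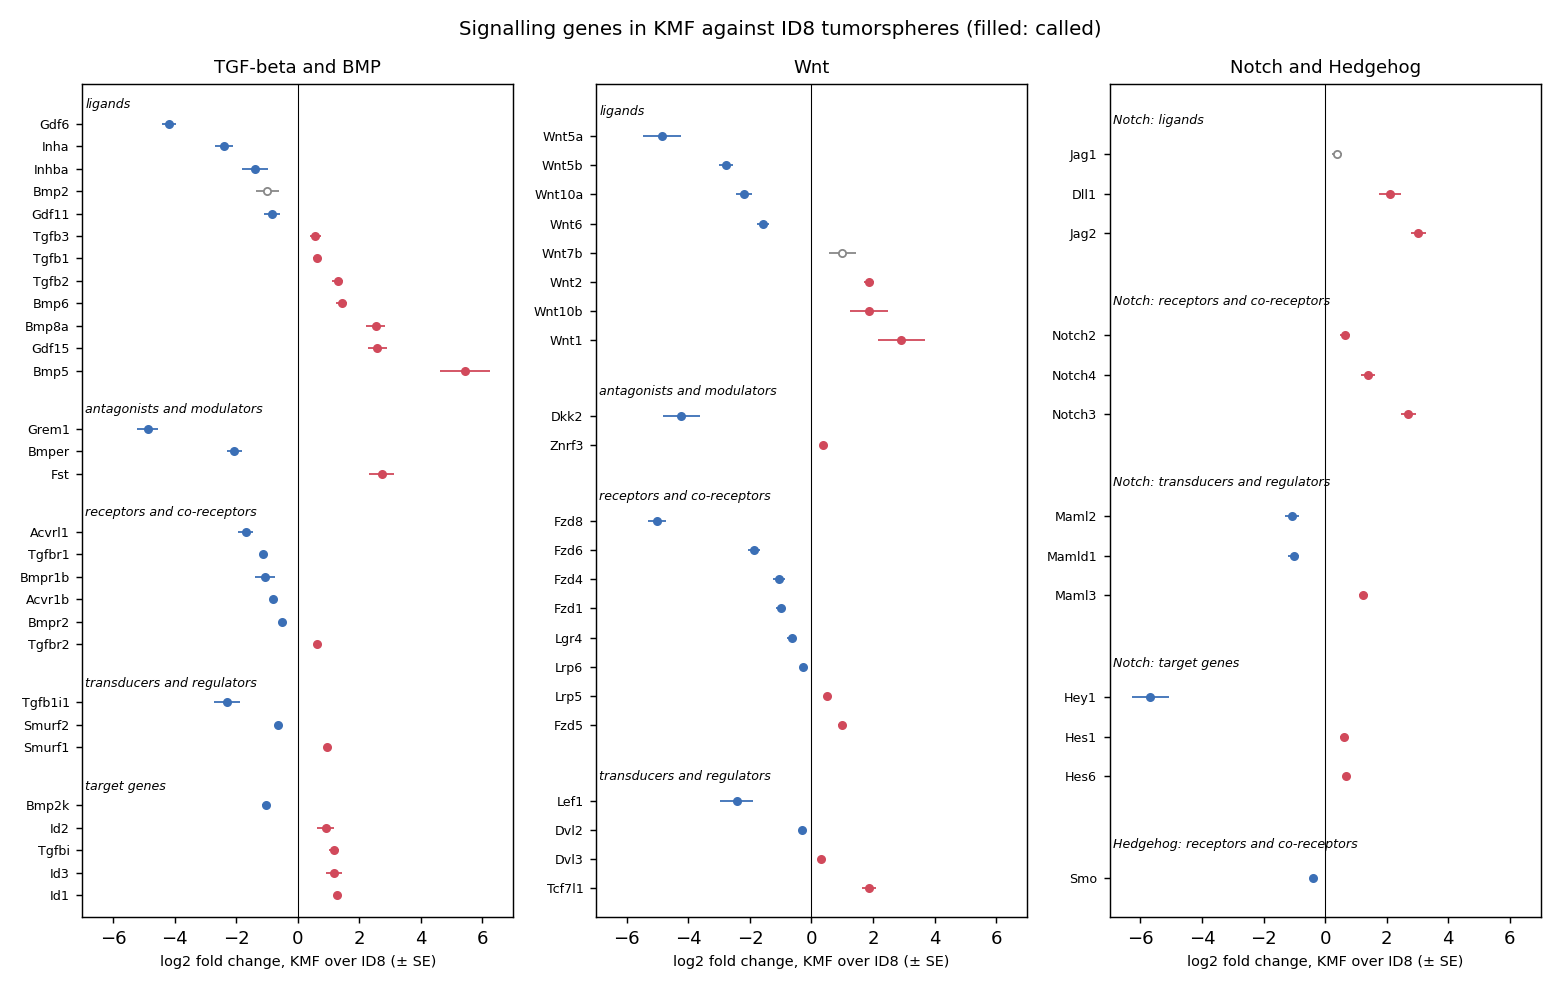
Log2 fold change of KMF over ID8 (x axis, ± SE) for the fitted members, by pathway and role (y axis). Filled points were called (red higher, blue lower in KMF) and open points were not. Heyl, at 0 counts in every KMF library, is left out, since its fitted value depends on the offset used. TGF-beta, BMP and Wnt receptors lie mostly to the left and Notch ligands and receptors to the right.

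The promoters of 5 members around which the results below turn are shown first: both TGF-beta receptors, the BMP antagonist Grem1, the most abundant Wnt ligand and the Notch receptor with the largest change. Each sequence holds the 250 bases before the RefSeq start site, on the strand of the gene, from RefSeq on GRCm38.p6, and none of them overlapped an exon of GENCODE M21. Capitals mark any match to the words searched on both strands, which were CTTTGAT and CTTTGAA (TCF and LEF proteins), GTGGGAA (RBPJ), CAGACA (SMAD proteins), GGCGCC and GGAGCC (BMP response) and GACCACCCA (GLI proteins). GGCGCC reads the same on both strands, and no pair of words overlapped in these stretches.
Tgfbr1, chr4:47352972-47353221, plus strand: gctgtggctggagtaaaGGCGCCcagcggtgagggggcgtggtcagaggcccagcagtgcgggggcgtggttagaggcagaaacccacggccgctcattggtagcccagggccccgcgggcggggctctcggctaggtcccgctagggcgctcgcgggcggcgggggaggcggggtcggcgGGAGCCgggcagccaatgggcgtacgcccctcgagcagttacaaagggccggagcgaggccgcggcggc
Tgfbr2, chr9:116175364-116175613, minus strand: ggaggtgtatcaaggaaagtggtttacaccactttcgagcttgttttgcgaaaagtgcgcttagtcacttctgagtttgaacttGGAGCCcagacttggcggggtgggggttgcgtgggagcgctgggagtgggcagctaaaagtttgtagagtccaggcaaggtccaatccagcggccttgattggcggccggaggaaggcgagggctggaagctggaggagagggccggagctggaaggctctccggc
Grem1, chr2:113758649-113758898, minus strand: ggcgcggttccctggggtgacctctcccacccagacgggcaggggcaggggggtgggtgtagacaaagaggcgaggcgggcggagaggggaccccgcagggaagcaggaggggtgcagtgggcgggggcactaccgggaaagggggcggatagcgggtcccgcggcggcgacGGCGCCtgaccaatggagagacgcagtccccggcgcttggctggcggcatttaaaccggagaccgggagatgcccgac
Wnt6, chr1:74771642-74771891, plus strand: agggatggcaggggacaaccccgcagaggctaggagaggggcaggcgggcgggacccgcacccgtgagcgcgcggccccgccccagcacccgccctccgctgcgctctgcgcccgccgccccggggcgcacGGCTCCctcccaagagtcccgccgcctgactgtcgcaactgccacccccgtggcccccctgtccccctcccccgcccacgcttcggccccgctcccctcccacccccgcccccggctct
Notch3, chr17:32166891-32167140, minus strand: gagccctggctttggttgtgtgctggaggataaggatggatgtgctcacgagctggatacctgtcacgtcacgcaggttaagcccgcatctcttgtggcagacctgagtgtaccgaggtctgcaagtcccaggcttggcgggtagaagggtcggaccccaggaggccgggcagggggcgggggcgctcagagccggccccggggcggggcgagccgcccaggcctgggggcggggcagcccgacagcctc
Tgfbr1 held 2 of these words, Tgfbr2, Grem1 and Wnt6 held 1 each, and Notch3 held none. All of the marked words were of the BMP response kind, GGCTCC in Wnt6 being GGAGCC on the other strand.

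Promoter windows of 300 bases, 250 before and 50 after a start site, were on file for 49 of the 69 members, 61 windows in all. GGAGCC was found in 50.8% of them and in 30.8% of 32817 windows of all genes, and GGCGCC in 26.2% and 11.9%. The members' windows had a median GC content of 63.3% against 52.7% in all windows, and the shares were not matched for it. CAGACA was found in 19.7% of the members' windows and 21% of all. GTGGGAA was present in 8.2% and 6.39%, in the members Bmpr2, Lef1, Mamld1 and Tcf7l1. CTTTGAT and CTTTGAA were each present in 1.64% of the members' windows, in Wnt5b and Inha, and in 3.73% and 5.14% of all. GACCACCCA was found in 0.253% of all windows and in none of the members'. These are matches of letters in a short window and were not tested.

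To see how the TGF-beta and BMP pathway differed between the lines, its 30 genes were compared by role. Of 29 fitted genes 14 were higher and 14 lower in KMF. All 3 TGF-beta ligand genes were higher in KMF, while 5 of 6 receptors were lower and Tgfbr2 was higher. The BMP antagonists Grem1 and Bmper were lower and Fst was higher, and the Id genes, classical targets of BMP receptors, were higher.

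Among ligands, Tgfb2 showed the largest change of the 3 TGF-beta genes. Its level was 8.99, 7.46 and 10.7 FPKM in ID8 and 25.6, 17.4 and 21.7 FPKM in KMF (log2 fold change 1.29, SE 0.17, adjusted p = 0.000699). Tgfb1 stood at 20.5, 23.3 and 20.4 FPKM in ID8 and at 37.2, 31.9 and 26.9 in KMF (0.62, SE 0.13, adjusted p = 0.00772). Neither gene overlapped between the lines. Tgfb3 had the highest mean level of the ligand members in both lines, although Inha and Tgfb1 were above it in ID8 replicate 3. It measured 28.3, 33.8 and 19.7 FPKM in ID8 and 41.5, 37.4 and 39.6 in KMF, with ID8 replicate 3 the lowest. Its call (log2 fold change 0.57, adjusted p = 0.0409) was lost without ID8 replicate 1 (adjusted p = 0.0963) and without any single KMF library (0.0594 to 0.0846), and the adjusted p-value ranged from 0.0094 to 0.0982 over all alternatives.

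BMP and growth and differentiation factor genes went both ways. Gdf15, a stress-induced secreted factor, rose from 2.57, 4.16 and 2.32 FPKM in ID8 to 20.8, 11.5 and 20.4 in KMF (log2 fold change 2.58, SE 0.31, adjusted p = 0.000445). Gdf6, a ligand of the BMP group, fell from 3.35, 3.78 and 4.13 FPKM to 0.252, 0.172 and 0.179 (-4.18, SE 0.22, adjusted p = 1.56e-05). In both genes every KMF library lay beyond every ID8 library. Bmp5 had 0, 2 and 0 counts in ID8 and 17, 30 and 57 in KMF. Its level was thus 51.6 times higher in KMF, with an exact 95% counting interval of 13.9 to 432, and 46.7% of its exon bases are shared with an antisense gene on the other strand. Its fitted log2 fold change of 5.43 rests on the 2 counts of ID8 replicate 2, without which ID8 is at 0 and the fit gives no usable size, and it was 4.83 without ID8 replicate 1. Bmp5 was called, but it entered the fit only through its counts in KMF, so the call adds no support. Bmp6 and Bmp8a were also higher in KMF, by 1.43 (SE 0.17) and 2.53 (SE 0.31).

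The 2 inhibin subunit genes among the members were lower in KMF. Inha, which encodes the α subunit that makes inhibin rather than activin, fell from 19.0, 17.4 and 25.0 FPKM to 2.13, 4.78 and 4.45 (log2 fold change -2.39, SE 0.29, adjusted p = 0.000497). Inhba, whose product forms activin A, measured 2.53, 5.25 and 1.97 FPKM in ID8 and 1.65, 1.11 and 0.908 in KMF. ID8 replicate 2 was well above the others. Its call (-1.38, adjusted p = 0.0343) was lost without that library (adjusted p = 0.0992), without KMF replicate 2 (0.106) or without KMF replicate 3 (0.122), in a range of 0.00487 to 0.122 over all alternatives. Gdf11 was lower by a log2 fold change of -0.83 (adjusted p = 0.0428), a call that was lost without any 1 of 5 libraries (adjusted p 0.0553 to 0.153) and kept without KMF replicate 1. Over all its alternatives it ranged from 0.0172 to 0.153. Bmp2 measured 1.25, 2.28 and 1.64 FPKM in ID8 and 1.26, 0.475 and 0.796 in KMF, and the lines overlapped. It was not called (-0.99, SE 0.38, adjusted p = 0.0825), although without KMF replicate 1 it was (0.0249, the lowest of a range up to 0.282). Gdf9 had 6, 10 and 21 counts in ID8 and 0, 2 and 3 in KMF and was too low to be fitted. It was 7.46 times lower in KMF, with a counting interval of 2.92 to 24.3.

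The member receptor genes of this pathway were mostly lower in KMF, and the 2 TGF-beta receptors moved in opposite directions. Tgfbr1, the type I receptor that phosphorylates SMAD2 and SMAD3, measured 56.6, 55.4 and 68.8 FPKM in ID8 and 25.7, 26.7 and 27.2 in KMF (log2 fold change -1.14, SE 0.09, adjusted p = 7.36e-05). Tgfbr2, the type II receptor that binds TGF-beta first, measured 48.7, 44.4 and 53.1 FPKM in ID8 and 67.5, 79.7 and 70.0 in KMF (0.61, SE 0.09, adjusted p = 0.00151). The lines were separate for each gene. In ID8 the Tgfbr1 level was above that of Tgfbr2 in every library, and in KMF it was below it in every library. Tgfbr1 thus made up 42.1 to 45.1% of the summed FPKM of the 6 member receptor genes (which leaves out Amhr2) in ID8 and 21.7 to 23.8% in KMF, and Tgfbr2 34.8 to 36.2% and 60.8 to 64.8%.

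The endothelial-type receptor gene Acvrl1 (ALK1) fell from 2.18, 2.31 and 2.52 FPKM to 0.664, 0.499 and 0.926 (log2 fold change -1.69, SE 0.24, adjusted p = 0.00107). Its neighbour Acvr1b, an activin receptor gene that lies 28.7 kb away on chromosome 15, was lower by -0.81 (SE 0.08), and Bmpr2, the type II BMP receptor gene, by -0.51 (SE 0.12). Bmpr1b was low in both lines, at 35, 36 and 49 counts in ID8 and 13, 21 and 22 in KMF. The lines did not overlap, yet its call (-1.07, SE 0.33, adjusted p = 0.0375) was lost when any single library was left out, with adjusted p-values of 0.0537 to 0.136 and a range of 0.0151 to 0.136 over all alternatives.

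The 3 secreted antagonists among the members went both ways. Grem1, which encodes the BMP antagonist gremlin, measured 10.2, 10.1 and 20.8 FPKM in ID8 and 0.45, 0.386 and 0.515 in KMF (log2 fold change -4.87, SE 0.34, adjusted p = 4.41e-05). ID8 replicate 3 was highest, and the lowest ID8 library was far above all of KMF. Bmper, a BMP-binding secreted protein, measured 13.6, 15.7 and 14.8 FPKM in ID8 and 4.89, 2.44 and 2.98 in KMF (-2.06, SE 0.24, adjusted p = 0.000404). Fst, the activin antagonist follistatin, went the other way, from 0.711, 1.33 and 0.517 FPKM to 7.87, 4.20 and 4.32 (2.72, SE 0.41, adjusted p = 0.00136). Of the summed FPKM of these 3 genes, Fst was 1.43 to 4.90% in ID8 and 55.3 to 59.8% in KMF, and Grem1 was 3.41 to 6.60% in KMF. The secreted BMP-binding proteins Nbl1 and Twsg1, which are not members, were more abundant than each of the 3 and higher in KMF, at 54.8 ± 6.69 FPKM in ID8 against 163 ± 25.7 in KMF for Nbl1 and at 47.5 ± 3.31 against 71.9 ± 7.18 for Twsg1 (SD over 3 libraries).

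Among intracellular regulators, the 2 SMURF ubiquitin ligases, which mark SMAD proteins and receptors for degradation, exchanged rank. Smurf1 rose from 11.8, 12.5 and 12.7 FPKM to 24.1, 23.9 and 20.9 (log2 fold change 0.93, SE 0.09, adjusted p = 0.000133). Smurf2 fell from 22.0, 23.1 and 25.5 FPKM to 15.0, 15.1 and 14.4 (-0.63, SE 0.08, adjusted p = 0.000518). Smurf2 was the higher of the pair in every ID8 library and Smurf1 in every KMF library, and their summed level with Tgfb1i1 overlapped between the lines, at 34.6 to 38.7 FPKM in ID8 and 35.4 to 39.2 FPKM in KMF. Tgfb1i1 (Hic-5), a focal adhesion adaptor, was lower in KMF at 5, 13 and 9 counts against 64, 35 and 41 (-2.29, SE 0.42, adjusted p = 0.00344). Its KMF counts alone were too low for the filter of the fit, so its call adds no support.

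The 5 members grouped as targets of this pathway were higher in KMF except for the kinase gene Bmp2k. Id1, an inhibitor of basic helix-loop-helix factors and a direct BMP target, measured 32.9, 26.2 and 28.6 FPKM in ID8 and 70.4, 70.3 and 67.3 in KMF (log2 fold change 1.29, SE 0.10, adjusted p = 5.43e-05). Id3 measured 15.2, 13.9 and 10.3 FPKM in ID8 and 40.8, 21.5 and 25.1 in KMF (1.18, SE 0.26, adjusted p = 0.00843). Tgfbi, an extracellular matrix protein named for its induction by TGF-beta, measured 11.4, 11 and 14.5 FPKM in ID8 and 23.9, 33.8 and 23.1 in KMF (1.17, SE 0.17, adjusted p = 0.00123). None of these 3 genes overlapped between the lines. Id2 did overlap, at 5.42, 5.15 and 6.96 FPKM in ID8 and 15.1, 6.92 and 10.03 in KMF. Its call (0.91, adjusted p = 0.0366) was lost without ID8 replicate 1 (0.119), ID8 replicate 2 (0.104), KMF replicate 1 (0.0961) or KMF replicate 3 (0.0696), in a range of 0.0108 to 0.119 over all alternatives. Bmp2k was lower by -1.03 (SE 0.13), and 14.0% of its exon bases are shared with Paqr3 on the other strand.

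**Figure D2:**
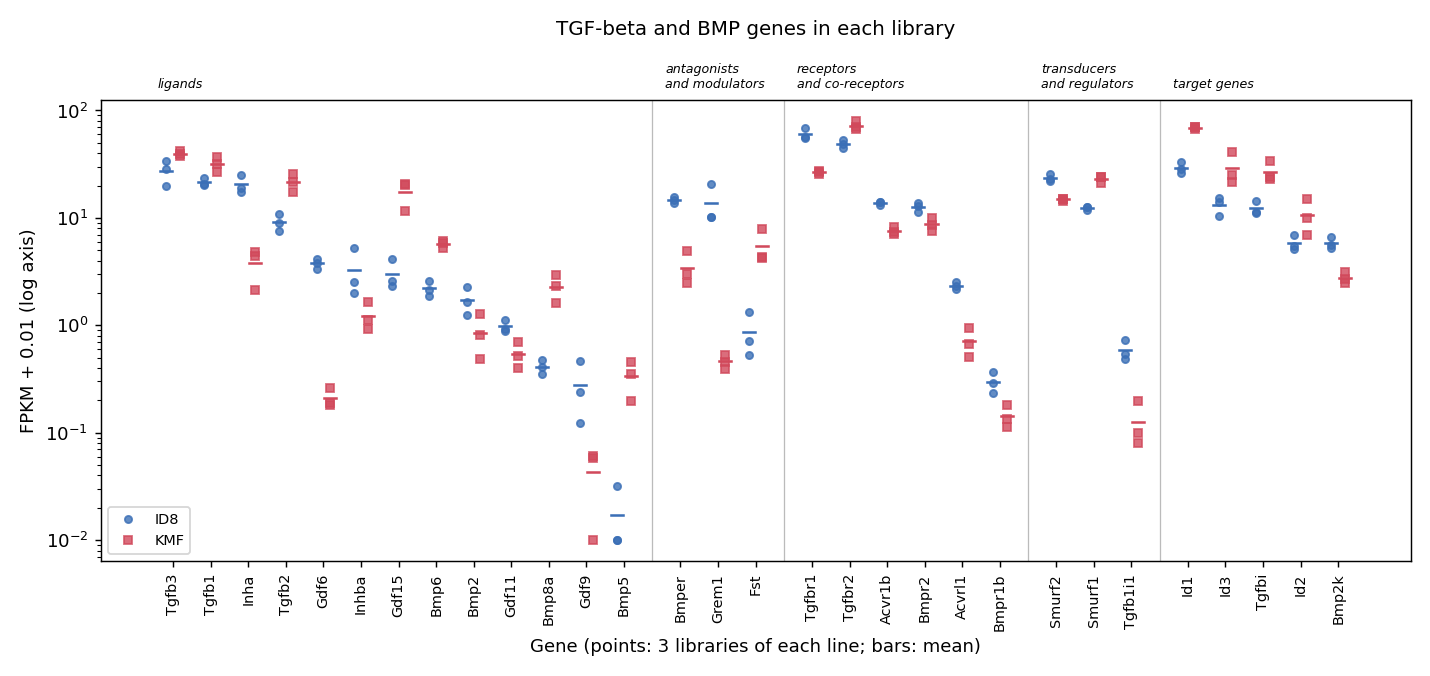
FPKM + 0.01 (y axis, log scale) of the 30 TGF-beta and BMP genes in each of 3 ID8 libraries (circles) and 3 KMF libraries (squares), with means as bars, ordered by role and by ID8 level. Tgfbr1 and Tgfbr2, and Smurf2 and Smurf1, exchange order between the lines, and Grem1 falls from 13.7 to 0.45 FPKM on average.

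A list of 56 further TGF-beta and BMP pathway genes was looked up in the same way. The table listed 28 of them, and of 27 fitted genes 13 were called higher and 13 lower in KMF. Their median log2 fold change was 0.27, beside -0.235 over all fitted genes, of which 92.9% were called, 45.4% higher and 47.5% lower. Amhr2, the receptor of anti-Müllerian hormone, which is typical of the ovarian and coelomic lining, was lower at 24.2 FPKM in KMF against 465 in ID8 (log2 fold change -4.22, SE 0.11). Chrd and Nbl1, both BMP antagonists, were higher (1.85, SE 0.12, and 1.62, SE 0.14), whereas Chrdl2, another, was lower (-2.59, SE 0.19). Klf10, an early TGF-beta response gene, was higher (1.41, SE 0.11), and Thbs1, whose product can activate latent TGF-beta, was lower (-2.87, SE 0.21).

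The second comparison concerned Wnt signalling. Of 22 fitted genes 8 were higher and 13 lower in KMF. The ligands Wnt6, Wnt10a, Wnt5a and Wnt5b were lower, and Wnt2, Wnt1 and Wnt10b were higher. Of 5 Frizzled genes 4 were lower, Fzd8 by the most, and the antagonist Dkk2 and the transcription factor gene Lef1 were lower while Tcf7l1 was higher.

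Wnt6 was the most abundant of all 69 genes in ID8. It measured 135, 107 and 161 FPKM in ID8 and 37.4, 38.3 and 55.8 in KMF (log2 fold change -1.57, SE 0.19, adjusted p = 0.000452). All KMF libraries were below all ID8 libraries, and within KMF it was still the most abundant Wnt ligand gene among the members. Wnt10a, which begins 6.19 kb from Wnt6 on chromosome 1, moved with it, from 29.4, 35.7 and 22.3 FPKM to 8.56, 5.14 and 5.04 (-2.19, SE 0.26, adjusted p = 0.000426). Wnt6 made up 62.4 to 78.9% of the summed FPKM of the member Wnt ligand genes in ID8 and 47.4 to 60.4% in KMF. Their sum was 172 to 204 FPKM in ID8 and 70.8 to 92.3 FPKM in KMF.

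Wnt5a and Wnt5b, ligands best known for β-catenin-independent signalling, were both lower. Wnt5a had 2129, 2171 and 1835 counts in ID8 and 27, 142 and 28 in KMF, that is, 10.3, 12.8 and 10.2 FPKM against 0.163, 0.877 and 0.12 (log2 fold change -4.86, SE 0.62, adjusted p = 0.000622). KMF replicate 2 was well above the other KMF libraries, and without it the fitted log2 fold change was -6.25. Wnt5b fell from 4.23, 4.16 and 3.50 FPKM to 0.483, 0.694 and 0.508 (-2.78, SE 0.22, adjusted p = 7.05e-05). Neither gene overlapped between the lines.

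Wnt2 was the ligand gene with the clearest rise. It measured 7.22, 8.51 and 5.82 FPKM in ID8 and 24.8, 23.0 and 28.6 in KMF (log2 fold change 1.86, SE 0.16, adjusted p = 9.03e-05), and its share of the same sum was 2.85 to 4.96% in ID8 and 31.0 to 32.5% in KMF. Wnt1 and Wnt10b lie 11.7 kb apart on chromosome 15 and were both low and higher in KMF. Wnt1 had 8, 4 and 6 counts in ID8 and 85, 18 and 25 in KMF (2.92, SE 0.76, adjusted p = 0.0177). It entered the fit only through its counts in KMF, so its call adds no support. Its value rests partly on KMF replicate 1, without which it was 1.79 (adjusted p = 0.0227), and the call was lost without ID8 replicate 1 (0.0532) or 2 (0.0557), in a range of 0.00131 to 0.0557 over all alternatives. Wnt10b had 29, 38 and 15 counts in ID8 and 167, 35 and 86 in KMF, so that the lines overlapped. Its call (1.87, adjusted p = 0.0482) was lost without ID8 replicate 1 (0.142), ID8 replicate 3 (0.131), KMF replicate 1 (0.17) or KMF replicate 3 (0.0593). It was called in 6 of 16 alternatives, with adjusted p-values from 0.0123 to 0.17, and was also lost with library totals alone, upper quartile scaling, a minimum of 10 counts, a replicate block and both limma fits. Without KMF replicate 1 the log2 fold change of Wnt10b was 1.03.

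The remaining ligand genes were near the limit of detection or did not pass the test. Wnt7b measured 0.894, 1.20 and 0.658 FPKM in ID8 and 2.78, 1.81 and 0.81 in KMF, overlapped between the lines, and was not called (log2 fold change 1.01, SE 0.45, adjusted p = 0.141), although without KMF replicate 3 it was (0.0181, in a range of 0.0181 to 0.539). Rspo1, an R-spondin that strengthens Wnt signals through LGR receptors, had 32, 53 and 7 counts in ID8 and 0 in each KMF library. It was therefore at least 10.2-fold lower in KMF against a floor of 3 counts in each library. Wnt16 had 24, 15 and 6 counts in ID8 and 0, 0 and 1 in KMF, a level 45.4 times lower with a counting interval of 7.74 to 1831. Both were left out of the fit as too low. Alternatives that fitted them called them, which is no support, since they enter a fit only through their counts in ID8. ID8 replicate 3, the library of the highest passage, was the lowest ID8 library for both.

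Frizzled receptors bind Wnt ligands at the cell surface, and of the 5 Frizzled genes among the members all but Fzd5 fell. Fzd8 had 350, 389 and 263 counts in ID8 and 10 in each KMF library, that is, 3.55, 4.82 and 3.06 FPKM against 0.127, 0.129 and 0.09 (log2 fold change -5.02, SE 0.29, adjusted p = 2.29e-05). Its KMF counts alone were too low for the filter of the main fit, so its call there adds no support. Fzd6 measured 19.3, 19.5 and 13.2 FPKM in ID8 and 4.28, 5.52 and 4.03 in KMF (-1.87, SE 0.19, adjusted p = 0.000221). Fzd4 measured 7.19, 8.96 and 6.59 FPKM in ID8 and 2.92, 3.24 and 4.41 in KMF (-1.06, SE 0.19, adjusted p = 0.00309). Fzd1 was lower by a similar size (-1.005, SE 0.14). Fzd5 rose from 6.32, 6.81 and 6.001 FPKM to 11.5, 10.3 and 15.2 (0.99, SE 0.14, adjusted p = 0.00107), and 17.8% of its exon bases are shared with a gene on the other strand. The lines were separate for all 5 Frizzled genes.

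The LRP co-receptors moved in opposite directions by small amounts. Lrp5 measured 21.5, 19.1 and 20.4 FPKM in ID8 and 27.8, 29.4 and 26.6 in KMF (log2 fold change 0.50, SE 0.08, adjusted p = 0.00147). Lrp6 measured 26.2, 23.2 and 24.6 FPKM in ID8 and 20.98, 18.6 and 19.8 in KMF (-0.28, SE 0.08, adjusted p = 0.0239). Its call was lost without ID8 replicate 1 (0.0953), KMF replicate 2 (0.128) or KMF replicate 3 (0.101), in a range of 0.00279 to 0.128 over all alternatives. Lrp6 was above Lrp5 in every ID8 library and below it in every KMF library. Lgr4, a receptor of R-spondins, was the most abundant receptor gene of this group in both lines, at 91.8, 77.0 and 116 FPKM in ID8 and 54.0, 63.5 and 60.2 in KMF (-0.64, SE 0.14, adjusted p = 0.00852). Its lines did not overlap.

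Among antagonists, Dkk2, a secreted ligand of LRP5 and LRP6, fell from 4.73, 5.04 and 8.65 FPKM to 0.62, 0.305 and 0.0652 (log2 fold change -4.23, SE 0.60, adjusted p = 0.00108). KMF replicate 1 was the highest of its line, and without it the value was -5.11. Dkk2 had 54, 26 and 8 counts in KMF, which alone were too low for the filter of the fit, so its call adds no support. Sfrp1, a secreted Frizzled-related protein, had 16, 12 and 3 counts in ID8 and 0 in each KMF library. The bound from these counts is a level at least 3.33-fold lower in KMF. Znrf3, a membrane ubiquitin ligase that removes Frizzled receptors, rose from 7.15, 6.79 and 6.63 FPKM to 9.04, 7.95 and 9.22 (0.39, SE 0.08, adjusted p = 0.00819). The lines did not overlap for either of Dkk2 and Znrf3.

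The DNA-binding partners of β-catenin differed as well. Tcf7l1, the member of the family best known as a repressor, measured 2.25, 2.32 and 1.34 FPKM in ID8 and 7.65, 5.97 and 7.46 in KMF (log2 fold change 1.87, SE 0.23, adjusted p = 0.000496). Lef1 had 73, 63 and 25 counts in ID8 and 6, 5 and 19 in KMF (-2.43, SE 0.53, adjusted p = 0.00808). The KMF counts of Lef1 alone were too low for the filter of the fit, so its call adds no support. The lines did not overlap for either gene, although ID8 replicate 3 and KMF replicate 3 came close for Lef1, and 13.7% of its exon bases are shared with an antisense gene. Lef1 and Dkk2 lie 861 kb apart on chromosome 3. The Dishevelled genes Dvl2 and Dvl3, adaptors downstream of Frizzled receptors, changed little and in opposite directions. Dvl2 measured 10.8, 10.8 and 11.6 FPKM in ID8 and 8.64, 8.36 and 9.01 in KMF (-0.31, SE 0.07, adjusted p = 0.0104), and was not called without KMF replicate 2 (0.0655, in a range of 0.000347 to 0.0655). Dvl3 measured 15.6, 16.8 and 17.7 FPKM in ID8 and 18.8, 20.8 and 20.7 in KMF (0.31, SE 0.08, adjusted p = 0.0201). Its call was lost without ID8 replicate 1 (0.0851), KMF replicate 2 (0.0588) or KMF replicate 3 (0.058), in a range of 0.00806 to 0.124. Of the exon bases of Dvl2, 18.3% are shared with Acadvl on the other strand.

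**Figure D3:**
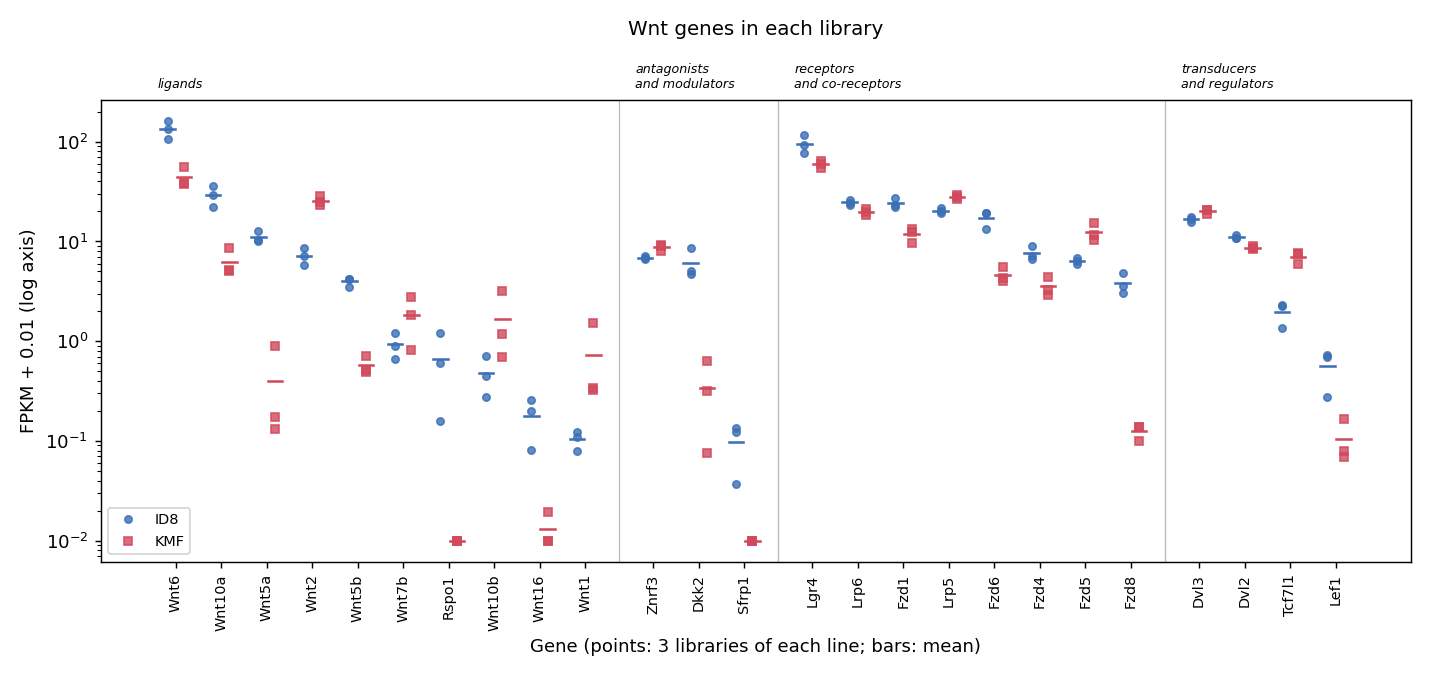
FPKM + 0.01 (y axis, log scale) of the 25 Wnt genes in each of 3 ID8 libraries (circles) and 3 KMF libraries (squares), with means as bars, ordered by role and by ID8 level. Wnt6 is the highest ligand gene in both lines, Wnt2 rises to second in KMF, and points at the lower edge are libraries with 0 counts.

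Of 64 further Wnt pathway genes on such a list, 28 were listed and fitted, 13 were called higher and 14 lower, and their median log2 fold change was -0.01. These counts are near the background of all fitted genes, of which 92.9% passed (45.4% higher, 47.5% lower, median -0.235). Sp5 and Axin2 are both direct targets of β-catenin, and they went opposite ways, Sp5 from 62, 35 and 50 counts in ID8 to 1, 0 and 0 in KMF, too few there for a level, and Axin2 from 1.96 to 3.99 FPKM (log2 fold change 1.06, SE 0.24). Tcf7, a partner of β-catenin, was higher (3.10, SE 0.21). Notum, which inactivates Wnt ligands, had 10, 1 and 3 counts in ID8 and 43, 29 and 34 in KMF (2.98, SE 0.58). Its ID8 counts alone were too low for the filter of the fit, so its call adds no support. The Wnt5a receptor gene Ror1 was lower (-2.33, SE 0.18), and so was the cell-surface proteoglycan gene Gpc4 (-2.83, SE 0.24).

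The third comparison concerned Notch signalling, in which 13 genes were listed and fitted, and 8 were higher and 4 lower in KMF. Ligands and receptors were called in 1 direction only. Jag2, Dll1, Notch2, Notch3 and Notch4 were all higher in KMF, and Jag1 was not called. Hes1 and Hes6 were higher in KMF, and Hey1 and Heyl were nearly absent from it. Hes6 is grouped with the targets by its symbol, but is known to act against Hes1 and is not a classical Notch target.

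Jag2 measured 1.47, 1.32 and 0.827 FPKM in ID8 and 8.39, 11.8 and 8.59 in KMF (log2 fold change 3.03, SE 0.25, adjusted p = 7.65e-05). Dll1, a Delta ligand, measured 2.12, 2.87 and 1.13 FPKM in ID8 and 9.13, 5.72 and 11.1 in KMF (2.12, SE 0.36, adjusted p = 0.00252), and 20.5% of its exon bases are shared with a non-coding gene on the other strand. The lines were separate for both. Jag1 was the most abundant of the 3 ligand members, at 13.9, 15.5 and 19.8 FPKM in ID8 and 23.7, 17.2 and 21.4 in KMF, and the lines overlapped (0.38, SE 0.16, adjusted p = 0.104). It was called without ID8 replicate 3 (0.025) or KMF replicate 2 (0.0445), in a range of 0.025 to 0.349. Its share of the summed FPKM of the 3 ligand members was 78.7 to 91.0% in ID8 and 49.5 to 57.5% in KMF. The summed level of the 3 ligand genes was 17.5 to 21.8 FPKM in ID8 and 34.7 to 41.2 FPKM in KMF.

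Of the 3 receptors among the members, Notch3 changed most. It had 65, 70 and 90 counts in ID8 and 485, 457 and 477 in KMF, that is, 0.274, 0.3605 and 0.436 FPKM against 2.56, 2.46 and 1.79 (log2 fold change 2.71, SE 0.23, adjusted p = 9.51e-05). Notch2 remained the most abundant of these 3, at 11.3, 7.53 and 9.08 FPKM in ID8 and 16.5, 13.0 and 13.2 in KMF (0.65, SE 0.16, adjusted p = 0.0122). Notch4 was low throughout, at 36, 31 and 43 counts in ID8 and 76, 84 and 126 in KMF (1.39, SE 0.24, adjusted p = 0.00254). None of these receptors overlapped between the lines. Of the Mastermind co-activator genes, Maml3 rose from 2.92, 2.41 and 3.10 FPKM to 7.48, 6.29 and 5.70 (1.25, SE 0.14, adjusted p = 0.000354). Maml2 fell from 3.63, 3.29 and 2.25 FPKM to 1.75, 1.18 and 1.29 (-1.08, SE 0.23, adjusted p = 0.00739). The Mastermind-like gene Mamld1 fell from 5.21, 3.85 and 5.86 FPKM to 2.49, 2.54 and 2.12 (-1.02, SE 0.17, adjusted p = 0.00239). The summed level of the 3 overlapped between the lines.

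Hey1 and Heyl encode repressors induced by Notch, which were low in ID8 and at or near 0 counts in KMF. Hey1 had 80, 54 and 45 counts in ID8 and 1, 2 and 0 in KMF. Its level was thus 60.1 times lower in KMF, with an exact 95% counting interval of 20.3 to 294. Its fitted log2 fold change was -5.68, and -6.59 without KMF replicate 2 or -4.96 without KMF replicate 3, sizes that rest on 1 to 3 counts in KMF. Heyl had 51, 50 and 40 counts in ID8 and 0 in each KMF library, at least 15.4-fold lower. Hey1 and Heyl were both called, but they entered the fit only through their counts in ID8, so these calls add no support. Hes6 rose from 34.0, 34.2 and 38.7 FPKM to 53.5, 56.7 and 55.0 (0.67, SE 0.08, adjusted p = 0.000373), and Hes1, the best known Notch target, from 28.6, 22.6 and 32.8 FPKM to 38.8, 46.1 and 40.6 (0.62, SE 0.14, adjusted p = 0.00828). For these 4 genes the lines did not overlap. In FPKM, Hes1 and Hes6 were far more abundant than Hey1 and Heyl in each line.

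**Figure D4:**
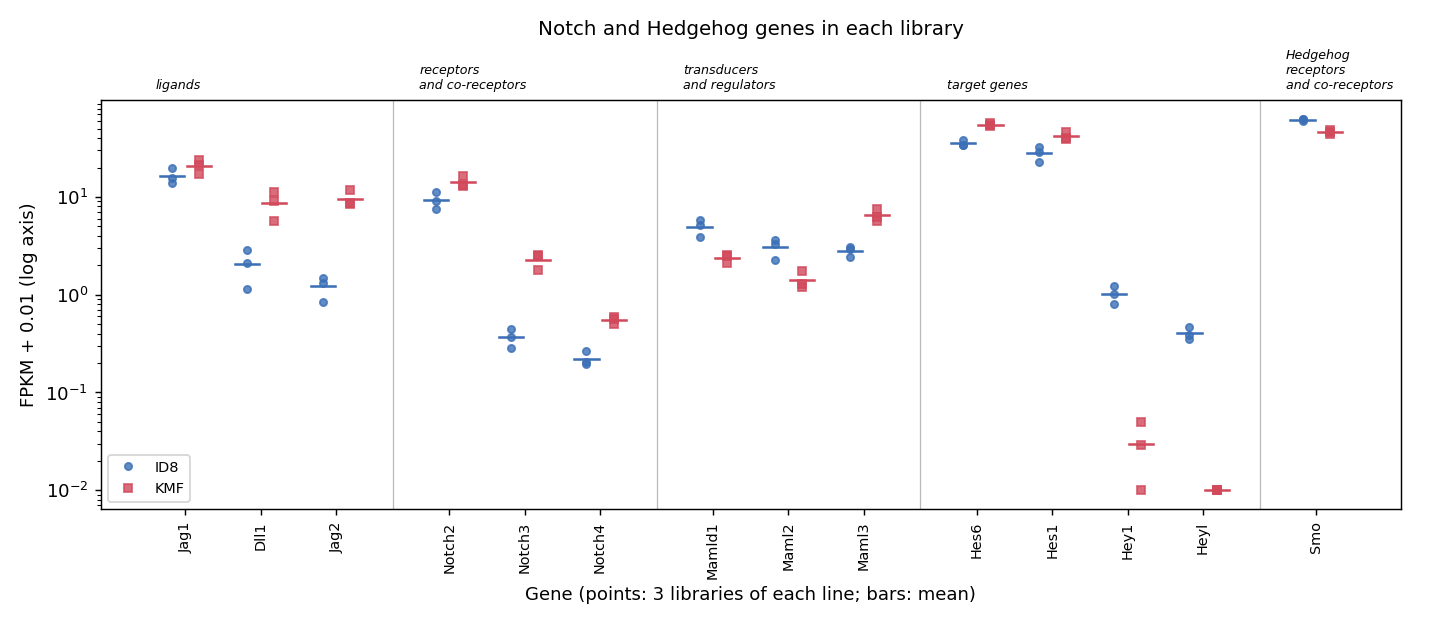
FPKM + 0.01 (y axis, log scale) of the 13 Notch genes and Smo in each of 3 ID8 libraries (circles) and 3 KMF libraries (squares), with means as bars, ordered by role and by ID8 level. Receptors and the ligands Jag2 and Dll1 lie higher in KMF, Jag1 overlaps, Hey1 and Heyl drop to or near 0, and Smo is slightly lower.

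Of 46 further Notch pathway genes 20 were listed, and all 20 were called, 13 of them higher and 7 lower in KMF (median log2 fold change 0.44). Beside the 92.9% of all fitted genes that were called (45.4% higher, 47.5% lower, median -0.235), calls in nearly every gene of such a list follow from the selection of the table, and the split was not tested. Rbpj, the DNA-binding partner of the receptors, was higher (0.76, SE 0.08), and so were the target and feedback gene Nrarp (2.98, SE 0.36), the ligand-side ubiquitin ligase gene Neurl1b (2.23, SE 0.10) and the glycosyltransferase gene Mfng (2.58, SE 0.55). The presenilin gene Psen2 was lower (-1.73, SE 0.14), and the ligand-like Dlk2 was higher (2.11, SE 0.43). Mfng had 12, 21 and 4 counts in ID8 and 78, 39 and 110 in KMF. Dlk2 had 16, 7 and 4 counts in ID8 and 35, 32 and 47 in KMF. The ID8 counts of Mfng and Dlk2 alone were too low for the filter of the fit, so their calls add no support.

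Hedgehog signalling was represented by Smo, the membrane transducer of the pathway, alone. It measured 63.3, 63.0 and 59.9 FPKM in ID8 and 48.6, 44.4 and 45.9 in KMF (log2 fold change -0.38, SE 0.07, adjusted p = 0.00387), with all KMF libraries below all ID8 libraries. Of 32 further Hedgehog pathway genes 18 were listed and 17 fitted, of which 6 were called higher and 10 lower, again from a table in which 92.9% of fitted genes were called. The ligand gene Dhh was lower (-1.47, SE 0.18), as was the co-receptor gene Gas1 (-1.82, SE 0.24).

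Several members lie near each other in the mouse genome (mm10). Wnt6 (ENSMUSG00000033227, chr1:74771892-74785322, plus strand) and Wnt10a (ENSMUSG00000026167, chr1:74791516-74804179, plus strand) were both lower in KMF, and so was Inha (ENSMUSG00000032968, chr1:75507077-75510366, plus strand), 702.9 kb from Wnt10a. Wnt10b (ENSMUSG00000022996, chr15:98771753-98778150, minus strand) and Wnt1 (ENSMUSG00000022997, chr15:98789857-98793837, plus strand) were both higher. Acvrl1 (ENSMUSG00000000530, chr15:101128522-101145336, plus strand) and Acvr1b (ENSMUSG00000000532, chr15:101174067-101213679, plus strand) were both lower, whereas Heyl (ENSMUSG00000032744, chr4:123233556-123249875, plus strand) and Bmp8a (ENSMUSG00000032726, chr4:123312645-123343252, minus strand) went opposite ways at a distance of 62.8 kb.

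Compared by level, the order of the members differed between the lines. In ID8 the highest means were those of Wnt6 (134 ± 27.1 FPKM), Lgr4 (95.02 ± 19.8), Smo (62.1 ± 1.91), Tgfbr1 (60.3 ± 7.43) and Tgfbr2 (48.7 ± 4.34, SD, n = 3). In KMF they were those of Tgfbr2 (72.4 ± 6.44), Id1 (69.3 ± 1.797), Lgr4 (59.2 ± 4.81), Hes6 (55.1 ± 1.61) and Smo (46.3 ± 2.11). Neighbours in these orders often overlapped in their libraries, as Smo and Tgfbr1 did in ID8 and Tgfbr2 and Id1 in KMF.

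Summed over the members of a role, the lines were apart for 11 of 13 classes of TGF-beta and BMP, Wnt and Notch genes, and overlapped for the transducers and regulators of TGF-beta and BMP and for those of Notch. With 96.6% of all single fitted genes not overlapping in this preselected table, that count says nothing about the roles. TGF-beta and BMP targets stood at 61.6 to 70.5 FPKM in ID8 and 128 to 153 in KMF, and the antagonists Grem1, Bmper and Fst at 24.6 to 36.2 and 7.03 to 13.2. Wnt receptors and co-receptors stood at 183 to 217 FPKM in ID8 and 134 to 144 in KMF. Notch receptors stood at 8.09 to 11.7 FPKM in ID8 and 15.5 to 19.5 in KMF, and the Hes and Hey genes, mostly Hes6 and Hes1, at 58.3 to 72.6 and 92.3 to 103. These sums hold the member genes only. Other listed genes with the same roles, such as Nbl1, Twsg1 and Amhr2, are left out of them, so the sums describe these members and not the whole role.

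**Figure D5:**
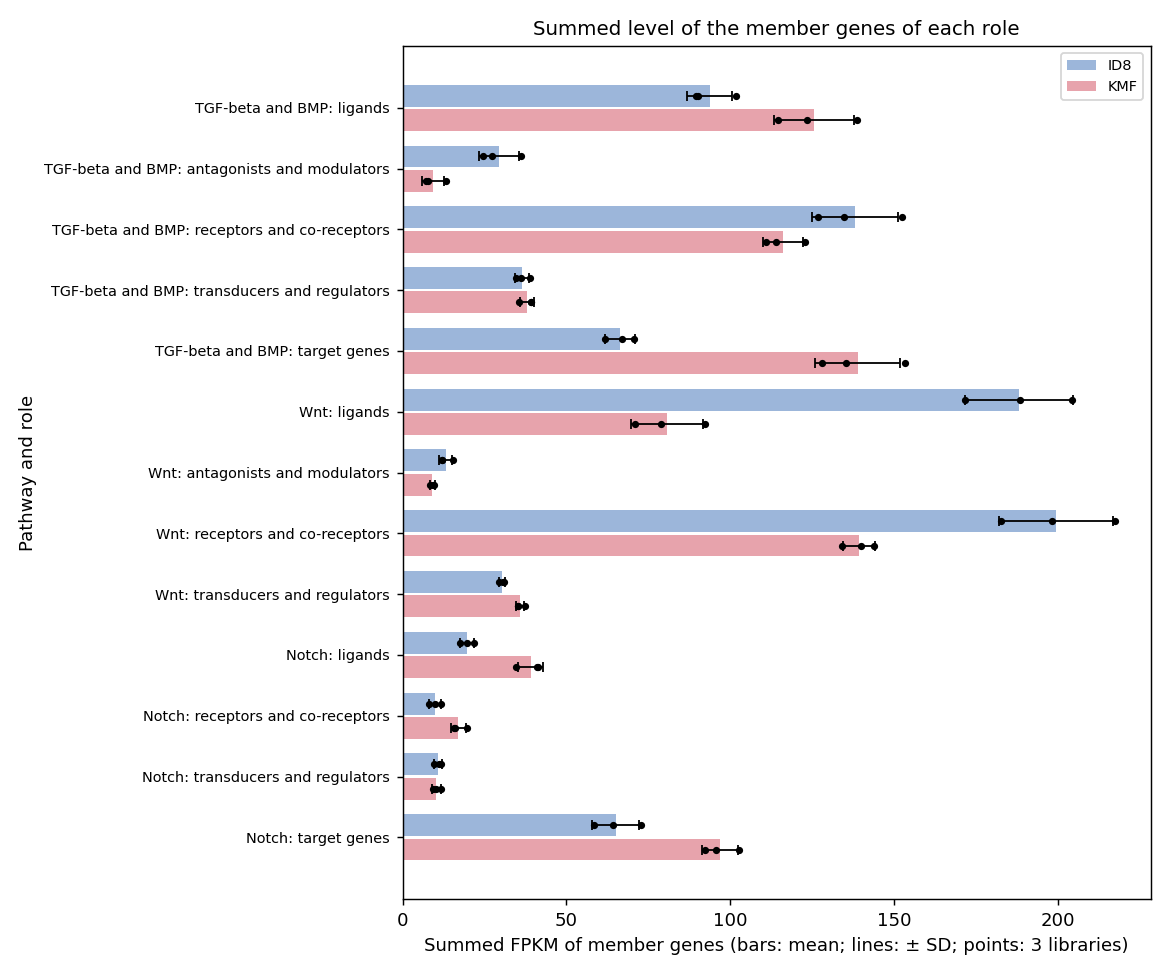
Summed FPKM (x axis) of the member genes of each pathway and role (y axis) in ID8 and KMF, with bars for the mean, lines for ± SD and points for the 3 libraries. The sums of member Wnt ligands and receptors and of Grem1, Bmper and Fst are lower in KMF, and those of TGF-beta and BMP ligands and targets and of Notch ligands and receptors are higher. The higher sum of the Hes and Hey genes is that of Hes6 and Hes1, since Hey1 and Heyl fell.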

How the data were processed

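RNA sequencing of 3 ID8 and 3 KMF tumorsphere samples was compared. Poly-A RNA was sequenced as paired-end reads by a service provider. The submitters' processing notes name CASAVA 1.8, STAR 2.5, DESeq2 and mm10, whereas the study's methods name TopHat2 for mapping, so the aligner is uncertain. The counting tool, annotation release and use of strand are not given in the sources used here. Reads shared with an overlapping gene on the other strand can therefore not be assigned.

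The deposited table holds the authors' raw counts of each gene in each library, without normalization. Beside them stand the authors' FPKM, their deposited signal per line (the mean count after division by size factors), a deposited log2 fold change from DESeq2, and a deposited p-value with its adjustment. The authors' fold changes and p-values were not used as results. The largest adjusted p-value in the deposited table was 0.0499 and the ranks correspond to 17359 genes tested, of which 7320 (42.2%) are listed, so calls on the same libraries are not independent evidence. Gene symbols turned into dates by a spreadsheet (14, none of them a member) were restored from the identifiers.

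Library totals were recovered from counts, FPKM and lengths. A floor of 3 counts corresponded to 0.0903 to 0.13 CPM. Intervals (95%, exact, conditional on the counts) and floors cover counting error only. Listed genes held 52.8 to 55.8% of the fragments. Counts were fitted in edgeR 4.0.16 under R 4.3.3 (glmQLFit and glmQLFTest, two-sided, TMM, filterByExpr, no covariate), and p-values were adjusted by Benjamini-Hochberg over 17359 genes. On simulated data with 7320 genes and 200 changed by 1 log2 unit, 80.9% of the changed genes that were fitted and 3 unchanged genes were called. There the adjustment was over the fitted genes alone, unlike in the main fit. Far fewer genes changed in it than in the real table, where 92.9% of fitted genes were called, so it does not test the fit in that setting. Libraries of the same line differed by more than counting error (lowest chi-square per degree of freedom 19.4), and r across genes was 0.98 to 0.991 within a line and 0.795 to 0.812 between lines.

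Members, gene lists and the rule for named genes were chosen with earlier results of these data known. The rule named, in each pathway and role, the 3 called genes with the largest change, and genes of at least 50 FPKM in a line, genes with a line at 3 counts or fewer, genes not called, and the extremes of families with calls in both directions. Other members are described as well. The promoters shown and the named genes of the wider lists were picked after their values were seen. Alternatives were other scalings, filters, DESeq2 1.42.0, limma 3.58.1 on log2 FPKM with an offset of 1 or 0.1, a replicate block, adjustment over fitted genes alone and each library left out. Python 3.11.15, pandas 2.3.3, scipy 1.17.1 and matplotlib 3.10.9 were used.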

Additional observations from a re-analysis of the deposited data

How the results depend on the processing

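No fitted member changed direction in the alternatives that could fit it, which were all 16 for most members, 14 for Bmp5, Hey1, Heyl, Lef1, Tgfb1i1 and Wnt1 and 15 for Bmpr1b, Dkk2, Gdf11 and Notch4. Of 65 fitted members, 13 changed their call in at least 1 alternative: Bmp2, Bmpr1b, Dvl2, Dvl3, Gdf11, Id2, Inhba, Jag1, Lrp6, Tgfb3, Wnt1, Wnt10b and Wnt7b. Of the 48 fitted members named by the rule it was 8, with 17 of 753 values no longer called and 7 newly called. Besides the losses on leaving out a library, the calls of Bmpr1b and Gdf11 were lost with a replicate block, those of Id2 and Tgfb3 with a minimum of 10 counts and that of Id2 with both limma fits. Bmp2 and Jag1 became called when adjusted over the fitted genes alone, and Bmp2 with DESeq2. The count of Notch genes lower in KMF fell from 4 to 2 with a minimum of 10 counts in every library, which removes Hey1 and Heyl from the fit, and also to 2 with limma on log2(FPKM + 1). The latter, which tests only genes with a mean FPKM above 1 and shrinks the change of low genes, left 25 members called and changed at least 2-fold in place of 42. Leaving out 1 library at a time gave 55 to 63 members called and 5 to 7 Wnt genes higher in KMF in place of 8 (the 5 without ID8 replicate 1). Upper quartile scaling shifted the median over all genes by -0.111 on the log2 scale, and the calls of Dvl3, Id2, Tgfb3 and Wnt10b were lost under it. The number of members called, 62, rose to 66 without a low count filter and to 67 with DESeq2, and Wnt genes lower in KMF from 13 to 16 in both, as Rspo1, Sfrp1 and Wnt16 then entered the fit through their counts in ID8, which adds no support for them. Gdf9 was called in 4 of 7 alternatives that fitted it. The number of members called fell to 52 with a minimum of 10 counts and to 51 with limma on log2(FPKM + 1), which test fewer genes. With a replicate block, as in a paired design, 59 members were called. The numbers share no animal, batch or day in the labels, and the deviations of same-numbered libraries correlated at 0.068, -0.072 and 0.106 across genes, so they were not treated as pairs, nor did every library correlate best with its own number. Depth limits the size of the change of Bmp5, Gdf9, Hey1 and Wnt16, with 1 to 5 counts in all in the lower line, and leaves only a bound for Heyl, Rspo1 and Sfrp1, with 0.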
